A study of Mus musculus with 36 samples.

Results

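The genes described here are 9 members of the bone morphogenetic protein (BMP) pathway: the ligand genes Bmp2 and Bmp4, the inhibitory SMAD genes Smad6 and Smad7, the inhibitor-of-differentiation genes Id1, Id2, Id3 and Id4, and the transcription factor gene Atoh8. They were taken by symbol from a deposited table of 54735 gene symbols, and all 9 were found there. They were chosen by their measured response to starvation, since Bmp4 and Atoh8 had changed differently in different cell lines, so their starvation values are given below as a description, without a test. RNA was sequenced from 3 lines of mouse embryonic fibroblasts (MEFs): wild type (WT), a line with GCN2 deleted, and a line with PERK deleted. The 4 conditions of each line were no treatment, the solvent DMSO, amino acid starvation (AAS) in a SILAC form of RPMI 1640 medium without lysine and arginine, and thapsigargin at 200 nM, an inhibitor of the SERCA pump that fills the endoplasmic reticulum with calcium. Starvation and thapsigargin lasted 6 h, and no time was listed for DMSO. All lines were otherwise grown in RPMI 1640 with fetal bovine serum. Each of the 12 groups held 3 libraries, which the labels call technical replicates, 36 in all. Each p-value therefore reflects technical spread between the libraries of a group, pooled over the 12 groups, with 1 line per genotype. A genotype cannot be told apart from its line, and no control for the change to starvation medium is named.

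BMPs are secreted dimers that bring together type I and type II receptor kinases at the cell surface. The receptors phosphorylate SMAD1, SMAD5 and SMAD9, which enter the nucleus with SMAD4 and switch on target genes. The ID genes are the classical early targets, and their proteins bind basic helix-loop-helix (bHLH) factors and keep them off DNA. Smad6, Smad7 and Atoh8 are also targets, and SMAD6 and SMAD7 act back on the receptors as inhibitors. In mesenchymal cells such as fibroblasts the pathway is best known for directing bone and cartilage differentiation. GCN2 and PERK are kinases that phosphorylate the translation factor eIF2alpha, GCN2 when amino acids are short and PERK when proteins misfold in the endoplasmic reticulum.

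In the GRCm38 annotation all 9 are protein-coding genes. Bmp4 lies at chr14:46383520-46390669 and Bmp2 at chr2:133552159-133562885. Smad6 lies at chr9:63953076-64022059. The ID genes are spread over 4 chromosomes, with Id1 at chr2:152736251-152737410, Id2 at chr12:25093799-25097140, Id3 at chr4:136143497-136145755 and Id4 at chr13:48261228-48266026. Atoh8 lies at chr6:72206177-72235577. RefSeq starts on GRCm38.p6 were used for 6 of the 9 members (Bmp4, Smad6, Id2, Id3, Id4 and Atoh8). The chromosome that carries Smad7 was left out when member windows were taken. The 250 bases before the start are printed for Bmp4 and Atoh8, which gave rise to the choice of genes, and for Smad6, whose thapsigargin changes had the same directions as those of Atoh8 in WT and in the GCN2 line. All 3 genes are on the minus strand, and the capitals mark the E-box CACGTG.
Bmp4, chr14:46390670-46390919: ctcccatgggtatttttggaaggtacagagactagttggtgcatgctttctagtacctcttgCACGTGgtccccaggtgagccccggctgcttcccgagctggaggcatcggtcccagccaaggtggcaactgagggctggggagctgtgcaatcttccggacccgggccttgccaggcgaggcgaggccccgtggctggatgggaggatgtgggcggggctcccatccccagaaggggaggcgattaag
Atoh8, chr6:72235578-72235827: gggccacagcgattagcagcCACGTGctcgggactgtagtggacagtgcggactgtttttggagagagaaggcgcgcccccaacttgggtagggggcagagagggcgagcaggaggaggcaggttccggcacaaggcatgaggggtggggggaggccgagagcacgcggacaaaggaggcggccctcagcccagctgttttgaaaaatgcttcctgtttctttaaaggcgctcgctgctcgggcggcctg
Smad6, chr9:64022060-64022309: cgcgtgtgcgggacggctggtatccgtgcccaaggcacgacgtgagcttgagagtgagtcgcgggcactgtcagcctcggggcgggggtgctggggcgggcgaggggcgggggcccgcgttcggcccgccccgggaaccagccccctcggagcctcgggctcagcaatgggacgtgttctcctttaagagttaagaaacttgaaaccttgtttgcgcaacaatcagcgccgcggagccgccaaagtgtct
The E-box CACGTG, which reads the same on both strands, stood 188 to 183 bases before the Bmp4 start and 230 to 225 bases before the Atoh8 start. Of 32851 RefSeq windows of the same 250 bases, 6.02% held it. Other letters searched for on both strands were GGCGCC, a GC-rich SMAD element held by 9.59% of windows, and GTCTG, the short SMAD-binding element held by 42.2%. GGCGCC was found once in the Id2 and once in the Id4 window, and GTCTG was found 2 times in the Id3 window. The cyclic-AMP element TGACGTCA (1.55% of windows) and the C/EBP-ATF element TGATGNAAN (3.44%) were in none of the 6 windows, and the Smad6 window held none of the 5 motifs. The motifs searched do not overlap in these windows.

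Replicate libraries resembled each other closely, with a correlation of log2 values across genes of 0.9621 to 0.9876. In TPM, a transcript abundance scaled for length and to a fixed total per library, all 8 fibroblast markers reached 1 in some group and summed to 2849 to 6602 TPM per library, whereas 0 of 4 epithelial markers did and the blood marker Ptprc was also under 1 TPM. Of 4 markers each, 2 endothelial, 1 blood, 1 skeletal muscle, 3 bone and cartilage, 3 fat and 3 neural markers reached 1 TPM in some group, and the neural ones had the highest sum of these lists (8.70 to 44.8 TPM). In these lists Cdh5, Tek, Ptprc, Adgre1, Hbb-bs, Myod1, Myog, Actn2, Ibsp, Adipoq and Olig2 stayed under 1 TPM in every group mean. Those that reached it were Pecam1 and Kdr for endothelium, Cd68 for blood and Myf5 for muscle. Bglap, Acan and Col2a1 for bone and cartilage, Plin1, Cebpa and Pparg for fat, and Sox2, Tubb3 and Gfap for the neural lineage also reached it. With DMSO, Eif2ak4 (GCN2) stood at 5.87 TPM in the GCN2 line and 21.8 in WT, and Eif2ak3 (PERK) at 4.50 TPM in the PERK line and 7.29 in WT. Which exons were deleted is not given in the labels. As a further check, the stress gene Ddit3 had a mean of 252 TPM in starved WT cells against 65.2 untreated. It had 16.7 against 36.5 TPM in the GCN2 line and 43.3 against 52.6 TPM in the PERK line. Trib3 had 204 against 18.5 TPM in WT, 1.15 against 6.01 in the GCN2 line and 33.6 against 27.1 in the PERK line. With thapsigargin against DMSO, Ddit3 had 921 against 58.9 TPM in WT, 475 against 37.0 in the GCN2 line and 268 against 55.1 in the PERK line. Trib3 then had 303 against 20.4 TPM, 210 against 5.51 and 71.1 against 33.4 in the same order. Eif2ak3 stood at 8.61 TPM in the thapsigargin-treated PERK line and 11.7 in treated WT cells. In 6 libraries (WT untreated 1, GCN2 DMSO 1, GCN2 thapsigargin 2, PERK untreated 3, PERK DMSO 3 and PERK starved 1) over 1.5% of all TPM fell on microRNA symbols. Without them, a choice made after seeing the data, the number of members that changed was the same in all 7 comparisons in which members were tested.

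**Figure D1:**
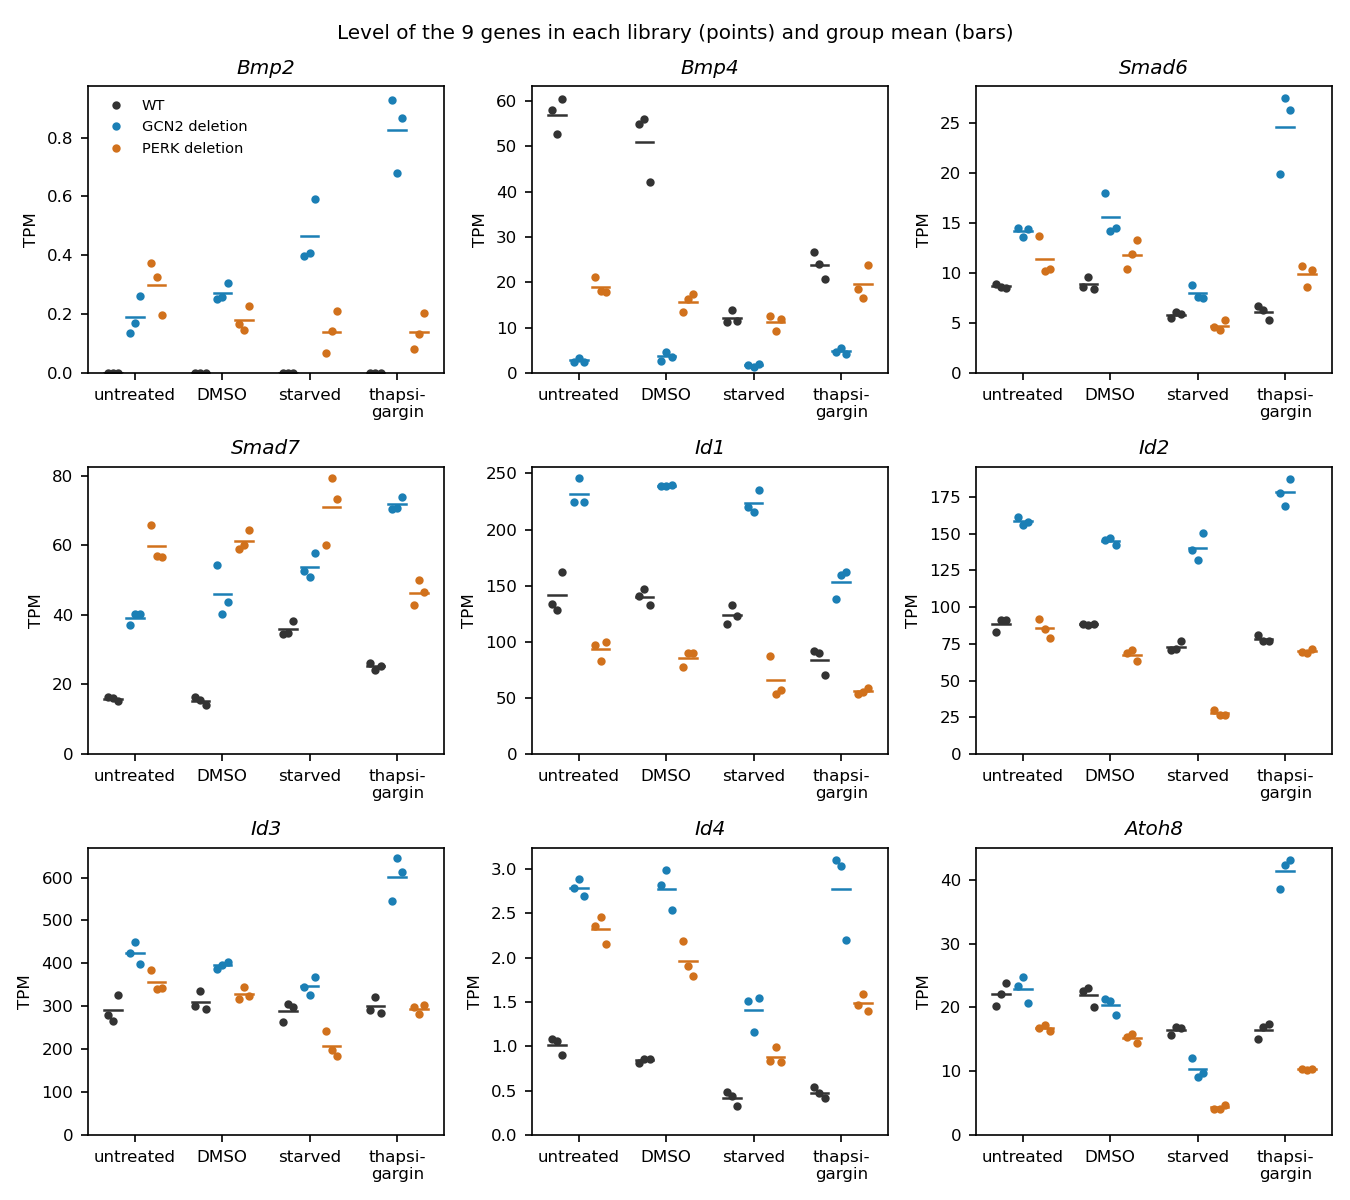
Expression of the 9 genes in each of the 36 libraries (vertical axes, TPM; points are libraries and bars are group means), by line and treatment. Bmp4 is highest in WT cells without stress (42.2 to 60.3 TPM) and lowest in the GCN2 line, and Atoh8 is highest in the GCN2 line with thapsigargin (38.6 to 43.0 TPM) and lowest in the starved PERK line (4.13 to 4.78 TPM).

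TPM is scaled for transcript length, so levels can be set side by side between genes. Id3 was the most abundant member, at 184 to 646 TPM over the 36 libraries. Id1 (53.7 to 246 TPM) and Id2 (26.6 to 187 TPM) followed. Smad7 (14.0 to 79.2 TPM), Bmp4 (1.22 to 60.3 TPM), Atoh8 (4.13 to 43.0 TPM) and Smad6 (4.30 to 27.5 TPM) were intermediate. Id4 was low (0.324 to 3.10 TPM, with 23 of 36 libraries at 1 TPM or more). Bmp2 reached 1 TPM in 0 libraries and was listed at 0 in all 12 WT libraries. A test required 1 TPM or more in 3 or more libraries, which 16083 genes met, so 8 of the 9 members were tested and Bmp2 was not.

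Thapsigargin lowered 6 of the 8 tested members in WT cells and raised 5 of them in the GCN2 line, which became 5 and 4 after median-of-ratios rescaling of the libraries. Of all 16083 tested genes, 2209 were lower in WT and 2940 higher in the GCN2 line after rescaling. Smad6 and Atoh8 fell in the former line and rose in the latter under both scalings. Id2 also did so, but did not pass in either line after rescaling. Values are differences of log2(TPM + 1), which understate the change of low genes, and a gene rose or fell where its adjusted p (limma, adjusted by Benjamini and Hochberg's method over the 16083 genes) was under 0.05. In WT cells 1 member, Smad7, rose and 6 fell, where 11.4% of all tested genes rose and 14.8% fell. In the GCN2 line 5 rose and 1 fell, where 25.4% of genes rose and 11.2% fell. In the PERK line 0 rose and 3 fell, where 2.49% of genes rose and 2.75% fell. Members' values against untreated cells are given below without a test, since those libraries entered the choice of genes. The members' median log2 difference was -0.36 in WT (all genes -0.04), 0.48 in the GCN2 line (0.08) and -0.25 in the PERK line (-0.04).

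The thapsigargin response itself differed from WT for 5 members in the GCN2 line, all 5 shifted upward (Bmp4, Smad6, Id2, Id3 and Atoh8), where 12.3% of genes had a higher and 1.88% a lower response. Within the PERK line it differed for 2 members, Bmp4 upward and Smad7 downward, where 5.56% of genes had a higher and 7.31% a lower response. The median response difference over all genes was 0.13 in the GCN2 line, and -0.04 after median-of-ratios rescaling of the libraries. With that rescaling, the share of called genes that were higher went from 86.7% to 51.5% for this difference, from 69.4% to 48.3% for thapsigargin in the GCN2 line, from 43.5% to 54.0% in WT and from 47.4% to 60.4% in the PERK line. Of the 5 members, 3 still differed after rescaling: Atoh8, Smad6 and Bmp4. Both line comparisons share the WT libraries.

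Libraries of the thapsigargin-treated GCN2 line also differed from their DMSO controls in general measures. Mitochondrial transcripts took 4.27% to 5.78% of TPM against 6.39% to 7.29%. The summed fibroblast markers were at 5452 to 5577 TPM against 6143 to 6602. The 4 endothelial markers summed to 5.15 to 6.84 TPM against 2.20 to 3.89, with Cdh5 and Tek under 1 TPM, and the 4 neural markers to 25.3 to 28.8 TPM against 14.3 to 17.9. The 4 fat markers summed to 8.09 to 10.0 TPM against 5.81 to 7.10. The part of these differences in the members' changes was not tested.

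**Figure D2:**
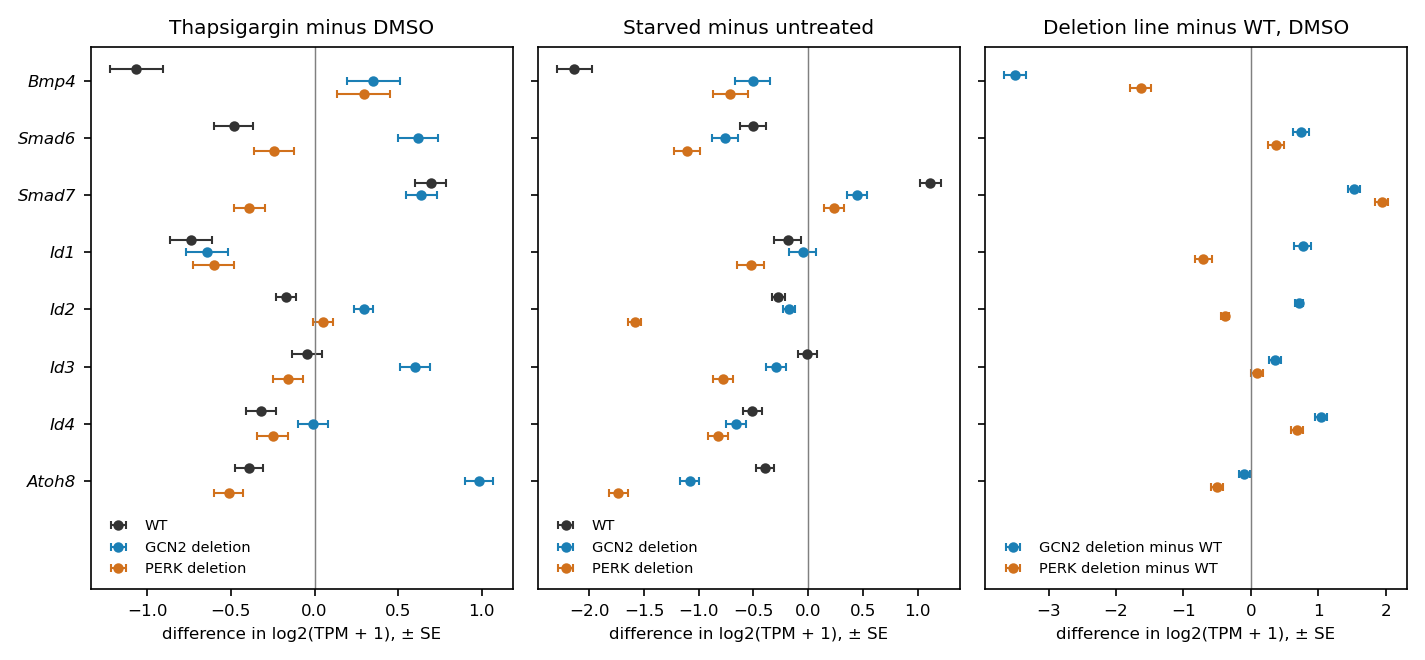
Differences of log2(TPM + 1), with bars for 1 standard error, for the 8 members that passed the expression filter: thapsigargin minus DMSO and starved minus untreated in each line, and each deletion line minus WT with DMSO. Atoh8, Smad6 and Id2 lie to the right of 0 with thapsigargin in the GCN2 line and to the left of 0 in all 3 lines when starved, and Bmp4 lies far to the left in both deletion lines with DMSO.

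Bmp4, the ligand gene of the set that was well expressed, differed between the lines and with both stresses. With DMSO it stood at 54.8, 56.1 and 42.2 TPM in WT, at 13.4, 16.3 and 17.4 TPM in the PERK line and at 2.63, 4.67 and 3.62 TPM in the GCN2 line. The 3 lines did not overlap. Bmp4 was lower than in WT by a log2 difference of -3.50 ± 0.16 (standard error here and below) in the GCN2 line (adjusted p = 6.93e-17) and of -1.64 ± 0.16 in the PERK line (adjusted p = 1.03e-09). In a bulk sample, fewer cells of a type and less RNA per cell cannot be told apart.

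Thapsigargin lowered Bmp4 in WT cells to 26.7, 23.9 and 20.7 TPM, a log2 difference of -1.07 ± 0.16 (adjusted p = 6.51e-06), and all treated libraries lay below all DMSO libraries. Within the GCN2 line the treated libraries stood at 4.71, 5.51 and 4.30 TPM and overlapped their controls. The log2 difference there was 0.35 ± 0.16, which did not pass (adjusted p = 0.087), although it passed without DMSO replicate 2 (0.51, adjusted p = 0.021). Against untreated cells, which entered the choice of genes, the difference was 0.64. For the PERK line, the treated libraries held 18.5, 16.5 and 23.7 TPM, again overlapping DMSO (0.30 ± 0.16, adjusted p = 0.40). The response differed from that of WT by 1.42 ± 0.22 in the GCN2 line (adjusted p = 0.00011) and by 1.36 ± 0.22 in the PERK line (adjusted p = 8.1e-05).

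With starvation, which entered the choice of genes, Bmp4 in WT cells stood at 11.3, 14.0 and 11.4 TPM against 57.9, 52.7 and 60.3 TPM untreated, a log2 difference of -2.14 ± 0.16. The PERK line held 12.7, 9.30 and 11.9 TPM against 21.2, 18.1 and 17.8 (-0.71 ± 0.16), and the GCN2 line 1.74, 1.22 and 2.02 TPM against 2.503, 3.28 and 2.51 (-0.51 ± 0.16). Starved libraries lay below untreated ones in all 3 lines. Starved WT and starved PERK libraries overlapped each other, while untreated WT cells had the more Bmp4. In the order of the 12 group means, WT untreated (57.0 TPM) and WT DMSO (51.0) came first and overlapped. They were followed by WT with thapsigargin (23.8), the PERK groups and starved WT cells, and the 4 GCN2 groups came last (4.84 to 1.66 TPM).

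Bmp2, the other ligand gene, stayed under 1 TPM throughout. In the GCN2 line it was listed at 0.929, 0.680 and 0.868 TPM with thapsigargin and at 0.253, 0.257 and 0.307 TPM with DMSO, without overlap. In the PERK line the groups overlapped, at 0.0819 to 0.202 TPM with thapsigargin and 0.147 to 0.227 with DMSO.

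Smad7 (chr18:75367529-75395935), the inhibitory SMAD that blocks both BMP and TGF-beta receptors, was higher in both deletion lines and answered to thapsigargin in different directions. With DMSO it stood at 16.2, 15.4 and 14.0 TPM in WT, 54.3, 40.3 and 43.6 TPM in the GCN2 line and 59.0, 59.9 and 64.3 TPM in the PERK line. WT libraries lay below those of both other lines. The log2 difference from WT was 1.53 ± 0.09 in the GCN2 line (adjusted p = 5.06e-14) and 1.94 ± 0.09 in the PERK line (adjusted p = 2.37e-16). Thapsigargin raised Smad7 in WT to 26.2, 24.3 and 25.2 TPM (0.70 ± 0.09, adjusted p = 1.12e-06) and in the GCN2 line to 70.5, 70.7 and 74.0 TPM (0.64 ± 0.09, adjusted p = 3.06e-06). Within the PERK line it lowered Smad7 to 42.8, 49.9 and 46.6 TPM (-0.39 ± 0.09, adjusted p = 0.0081). That fall did not pass without DMSO replicate 3 (adjusted p = 0.052) or without thapsigargin replicate 1 (0.071). The response in the PERK line was lower than in WT by a log2 difference of -1.09 ± 0.13 (adjusted p = 7.61e-07). For the GCN2 line the difference was -0.06, with a 95% interval from -0.33 to 0.21 (adjusted p = 0.83). Starved WT cells held 34.4, 34.8 and 38.2 TPM of Smad7 against 16.5, 16.1 and 15.3 TPM untreated, with no overlap (1.12 ± 0.09). The starved GCN2 line held 52.5, 50.8 and 57.8 TPM against 37.1, 40.3 and 40.1 TPM untreated, also with no overlap (0.44 ± 0.09). For the PERK line, the starved libraries, at 60.1, 79.2 and 73.3 TPM, overlapped the untreated ones at 65.9, 57.0 and 56.6 TPM.

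Smad6, the inhibitory SMAD more selective for BMP receptors, did not follow Smad7. With DMSO it stood at 8.60, 9.63 and 8.35 TPM in WT, 18.0, 14.2 and 14.5 TPM in the GCN2 line and 10.4, 11.9 and 13.2 TPM in the PERK line. It was higher than in WT by 0.74 ± 0.12 in the GCN2 line (adjusted p = 6.97e-06). In the PERK line it was higher by 0.38 ± 0.12 (adjusted p = 0.0087), which did not pass after rescaling (0.14, adjusted p = 0.36) or without PERK DMSO replicate 3 (0.30, adjusted p = 0.060). Thapsigargin lowered it in WT to 6.66, 6.26 and 5.27 TPM (-0.48 ± 0.12, adjusted p = 0.0026) and raised it in the GCN2 line to 19.8, 27.5 and 26.3 TPM (0.62 ± 0.12, adjusted p = 0.00013). Treated and control libraries did not overlap in either line. The PERK line held 10.7, 8.63 and 10.2 TPM, overlapping DMSO (-0.24 ± 0.12, adjusted p = 0.33). The GCN2 line's response was higher than that of WT by 1.11 ± 0.17 (adjusted p = 6.45e-05), and by 0.91 after rescaling. Starved libraries lay below untreated ones in each line, at 5.53 to 6.07 TPM against 8.53 to 8.88 in WT, 7.51 to 8.78 against 13.6 to 14.5 in the GCN2 line and 4.30 to 5.32 against 10.2 to 13.7 in the PERK line.

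The 4 ID genes, which encode dominant-negative partners of bHLH factors, did not move as a block. Id1 was the only ID gene that thapsigargin lowered in all 3 lines by the test. With DMSO it stood at 141, 147 and 133 TPM in WT and with thapsigargin at 91.7, 89.8 and 70.6 TPM. Within the GCN2 line it went from 239, 239 and 239 to 138, 159.6 and 162 TPM, and in the PERK line from 77.3, 89.6 and 90.1 to 53.7, 55.2 and 58.9 TPM. Treated libraries lay below controls in each line. The log2 differences were -0.74 ± 0.12 in WT (adjusted p = 3.61e-05), -0.64 ± 0.12 in the GCN2 line (adjusted p = 0.00016) and -0.60 ± 0.12 in the PERK line (adjusted p = 0.0020). Neither deletion line's response was shown to differ from that of WT: the difference was 0.10 (95% interval -0.26 to 0.46) for the GCN2 line and 0.14 (-0.22 to 0.50) for the PERK line. Between lines with DMSO, Id1 was higher than in WT by 0.77 ± 0.12 in the GCN2 line (adjusted p = 8.55e-06) and lower in the PERK line (-0.71 ± 0.12, adjusted p = 2.26e-05). Id1 and Bmp4 thus stood in opposite orders between WT and the GCN2 line. Starvation left Id1 libraries overlapping the untreated ones in all 3 lines. Within the PERK line starved replicate 1 held 87.4 TPM and the other 2 replicates 53.7 and 57.1 TPM, against 97.1, 83.0 and 100.2 TPM untreated. The difference was -0.52 ± 0.12 with replicate 1 and -0.74 without it. In that library 4.33% of TPM was mitochondrial, against 7.80% and 7.97% in the other 2.

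Id2 was lower in the starved PERK line than in any other group, without overlap. Starved PERK libraries held 30.1, 26.6 and 26.7 TPM of Id2 against 92.1, 85.4 and 79.1 TPM untreated, a log2 difference of -1.59 ± 0.06. With DMSO as the control, at 68.8, 70.8 and 63.1 TPM, the difference was -1.25. The starved WT (70.7, 71.5 and 76.8 TPM) and GCN2 libraries (139, 132 and 150.2 TPM) lay only somewhat below their untreated ones (83.3, 91.1 and 91.1 TPM in WT, 161, 156 and 158 TPM in the GCN2 line), by -0.27 and -0.17. With thapsigargin Id2 rose in the GCN2 line, to 178, 169 and 187 TPM from 145, 147 and 142 TPM with DMSO (0.29 ± 0.06, adjusted p = 0.00020). It fell in WT, to 81.1, 77.1 and 77.0 TPM from 88.6, 87.7 and 88.8 TPM (-0.17 ± 0.06, adjusted p = 0.028). The libraries did not overlap in either line, but neither call passed after rescaling (adjusted p = 0.14 and 0.36). The WT call also did not pass with no filter (adjusted p = 0.062) or without WT DMSO replicate 1 or 3 or WT thapsigargin replicate 2 or 3 (adjusted p = 0.074 to 0.096). The response in the GCN2 line was higher than in WT by 0.47 ± 0.08 (adjusted p = 0.00041), and by 0.25 after rescaling, which did not pass (adjusted p = 0.12). For the PERK line, Id2 with thapsigargin stood at 69.6, 69.0 and 71.4 TPM, overlapping DMSO (0.05 ± 0.06, adjusted p = 0.80). Against untreated cells the sign turned (-0.28). The response there differed from that of WT by 0.22 ± 0.08, which did not pass (adjusted p = 0.076) except with the compared groups alone (0.037). Between lines with DMSO, Id2 was higher than in WT in the GCN2 line (0.71 ± 0.06, adjusted p = 3.66e-11) and lower in the PERK line (-0.38 ± 0.06, adjusted p = 2.51e-06). The latter was -0.05 between untreated cells.

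Id3 rose with thapsigargin in the GCN2 line, from 387, 396 and 403 TPM to 546, 646 and 614 TPM, without overlap (0.60 ± 0.09, adjusted p = 3.57e-06). In WT it stood at 292, 322 and 285 TPM against 301, 335 and 293 TPM with DMSO, overlapping (-0.05 ± 0.09, adjusted p = 0.78). In the PERK line it stood at 297, 282 and 304 TPM against 317, 345 and 325 TPM (-0.16 ± 0.09, adjusted p = 0.43), and the difference was -0.27 against untreated cells. The response in the GCN2 line was higher than in WT by 0.65 ± 0.12 (adjusted p = 0.0010), and by 0.43 after rescaling, which did not pass (adjusted p = 0.10). Between lines with DMSO Id3 was 0.35 ± 0.09 higher in the GCN2 line than in WT (adjusted p = 0.0015), but 0.27 after rescaling (adjusted p = 0.079). For the PERK line the difference was 0.09 ± 0.09 (adjusted p = 0.42), and 0.30 between untreated cells. When starved, Id3 held 242, 199 and 184 TPM in the PERK line against 385, 339 and 344 TPM untreated, without overlap (-0.78 ± 0.09, and -0.89 without starved replicate 1). Starved GCN2 libraries also lay below untreated ones (325 to 369 against 399 to 449.6 TPM), while in WT they overlapped.

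Id4, the least abundant ID gene, fell with thapsigargin in WT, from 0.811, 0.861 and 0.861 TPM to 0.539, 0.479 and 0.413 TPM (-0.32 ± 0.09, adjusted p = 0.0085). It stood at 3.10, 3.03 and 2.20 TPM in the thapsigargin-treated GCN2 line against 2.82, 2.99 and 2.53 TPM (-0.01 ± 0.09, adjusted p = 0.98). Within the PERK line it stood at 1.46, 1.59 and 1.40 TPM against 2.19, 1.91 and 1.79 TPM (-0.25 ± 0.09, adjusted p = 0.12), and the difference was -0.42 against untreated cells. The Id4 response in the GCN2 line differed from that of WT by 0.31 ± 0.13, which did not pass (adjusted p = 0.10). It passed with a pseudocount of 0.1 (0.70, adjusted p = 0.033) and without GCN2 thapsigargin replicate 3 (0.43, adjusted p = 0.025). With untreated controls this response difference was 0.43. With DMSO it was higher than in WT in both deletion lines, by 1.03 ± 0.09 in the GCN2 line (adjusted p = 1.44e-10) and by 0.68 ± 0.09 in the PERK line (adjusted p = 3.24e-07). Starved libraries lay below untreated ones in every line, at 0.324 to 0.486 against 0.902 to 1.08 TPM in WT, 1.16 to 1.55 against 2.69 to 2.88 TPM in the GCN2 line and 0.820 to 0.991 against 2.16 to 2.46 TPM in the PERK line.

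Atoh8, a bHLH transcription factor gene downstream of BMP receptors, rose with thapsigargin and was lower with starvation in the GCN2 line, and was lower with both in WT and in the PERK line. With DMSO it stood at 22.6, 23.1 and 20.003 TPM in WT, at 21.4, 21.0 and 18.8 TPM in the GCN2 line and at 15.3, 15.8 and 14.3 TPM in the PERK line. WT and GCN2 libraries overlapped (-0.10 ± 0.09, adjusted p = 0.39), and the PERK libraries lay below both (-0.50 ± 0.09 from WT, adjusted p = 1.33e-05). Thapsigargin raised Atoh8 in the GCN2 line to 38.6, 42.3 and 43.0 TPM (0.98 ± 0.09, adjusted p = 3.4e-10). It lowered Atoh8 in WT to 15.1, 16.9 and 17.4 TPM (-0.39 ± 0.09, adjusted p = 0.00085) and in the PERK line to 10.3, 10.2 and 10.4 TPM (-0.51 ± 0.09, adjusted p = 0.00014). Treated and control libraries did not overlap in any line. The GCN2 line's response was higher than that of WT by 1.38 ± 0.12 (adjusted p = 1.72e-08), and by 1.17 after rescaling. The PERK line's response differed from that of WT by -0.12, with a 95% interval from -0.37 to 0.12 (adjusted p = 0.62).

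Starved libraries held less Atoh8 than untreated ones in every line. WT cells held 15.7, 16.98 and 16.8 TPM against 20.1, 22.2 and 23.8 TPM untreated, a log2 difference of -0.40 ± 0.09. The GCN2 line held 12.1, 9.09 and 9.76 TPM against 23.3, 24.7 and 20.6 TPM (-1.08 ± 0.09). The PERK line held 4.13, 4.13 and 4.78 TPM against 16.7, 17.3 and 16.3 TPM (-1.73 ± 0.09). The difference was thus smallest in WT for Atoh8 and largest in WT for Bmp4, the opposite pattern. In the order of the 12 group means, the thapsigargin-treated GCN2 line came first at 41.3 TPM, without overlap with the next group (22.9 TPM). The starved PERK line came last at 4.35 TPM, without overlap with the thapsigargin-treated PERK line (10.3 TPM).

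Counted over all 9 members without a test, starved libraries lay wholly below untreated ones for 5 members in WT, where this held for 21.1% of all tested genes, for 6 in the GCN2 line (21.4%) and for 6 in the PERK line (12.6%). They lay wholly above for 1 member in WT (Smad7, 15.8% of genes), for 2 in the GCN2 line (Smad7 and Bmp2, 18.5%) and for 0 in the PERK line (10.4%). Bmp2, under 1 TPM throughout, is counted among the members here but not among the tested genes behind the shares. Smad6, Id2, Id4, Atoh8 and Bmp4 were lower without overlap in all 3 lines. These shares carry no weight as evidence, since starvation entered the choice.

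Between lines with DMSO, 6 of the 8 tested members were higher in the GCN2 line than in WT and 1, Bmp4, was lower, where 25.8% of all genes were higher and 17.5% lower. For the PERK line, 3 were higher (Smad7, Id4 and Smad6) and 4 lower (Bmp4, Id1, Atoh8 and Id2), where 38.5% of genes were higher and 15.1% lower. Rescaling took the median difference of all genes between the PERK line and WT from 0.20 to 0.00 and the share of called genes that were higher from 71.8% to 48.1%. Marker sums differed between the lines too. With DMSO, fibroblast markers summed to 3726 to 3913 TPM in WT, 6143 to 6602 in the GCN2 line and 3017 to 3209 in the PERK line. Bone and cartilage markers summed to 1.09 to 1.41 TPM, 4.60 to 6.76 and 2.19 to 3.42, and neural markers to 32.1 to 35.6 TPM, 14.3 to 17.9 and 8.78 to 10.1. Their part in the line differences was not tested. DMSO itself left most members overlapping with untreated cells. The exceptions, all lower with DMSO, were Bmp4, Id2 and Atoh8 in the PERK line (15.7 against 19.0, 67.6 against 85.5 and 15.1 against 16.8 TPM), Id2 in the GCN2 line (145 against 158 TPM) and Id4 in WT (0.844 against 1.01 TPM).

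**Figure D3:**
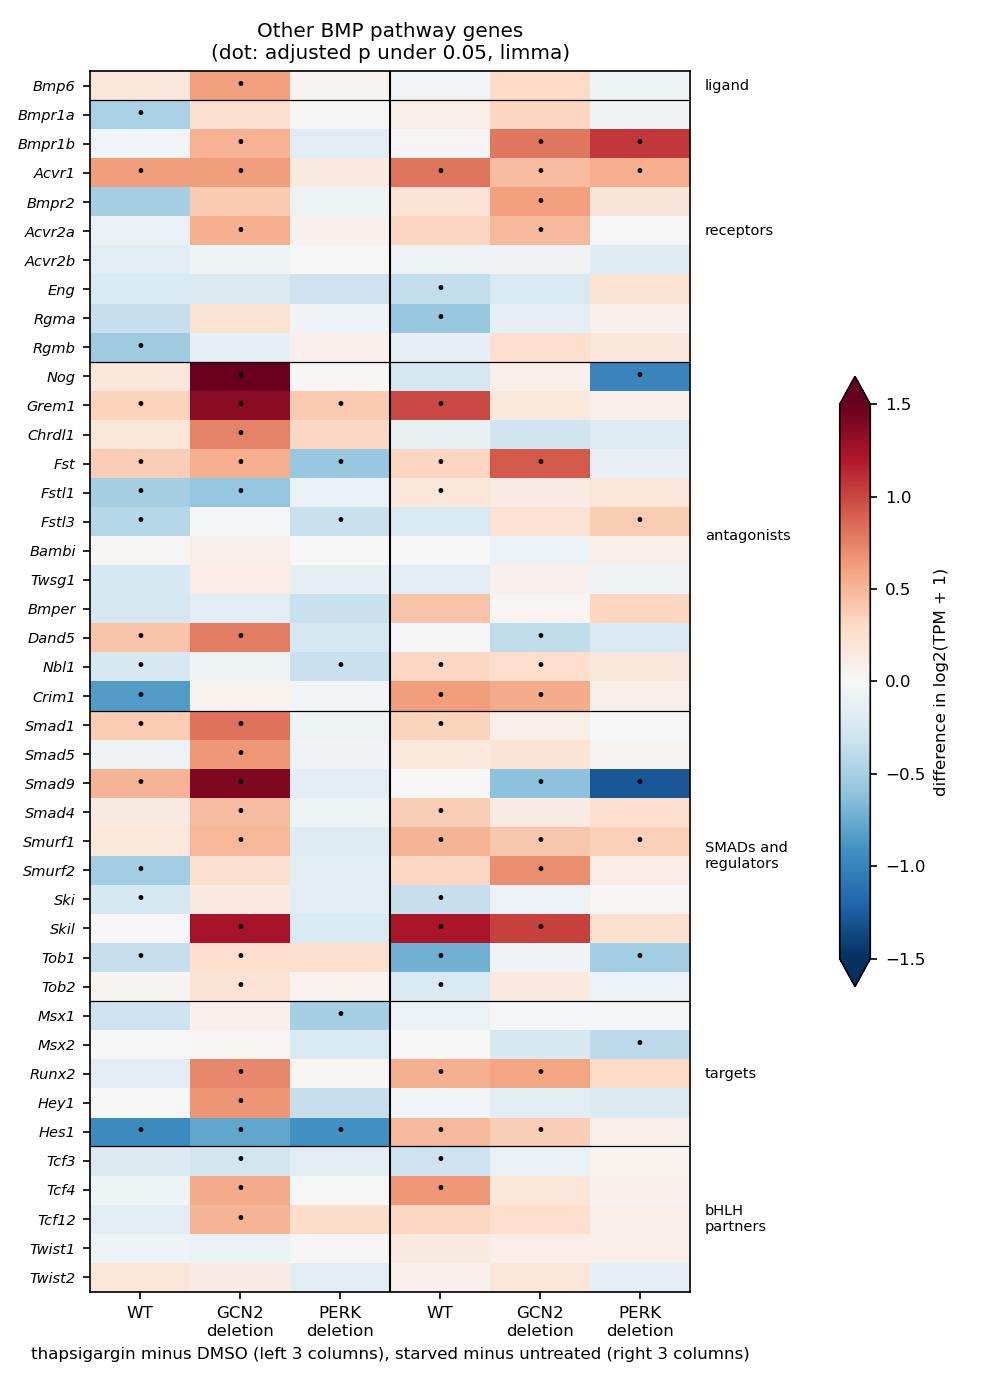
Colour map of the log2(TPM + 1) differences of the 42 other BMP pathway genes that were tested (1 per row, by group), for thapsigargin against DMSO (left) and starved against untreated cells (right) in each line; a dot marks an adjusted p under 0.05. With thapsigargin the GCN2 column has 21 genes called higher and 3 lower, the WT column 6 and 10, and the PERK column 1 and 5.

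The rest of the pathway was read from 61 further genes in 6 lists, drawn up with earlier results of these data known. Of these genes, 42 were expressed enough to be tested. Thapsigargin raised 6 and lowered 10 of them in WT, raised 21 and lowered 3 in the GCN2 line, and raised 1 and lowered 5 in the PERK line. The shares of all tested genes that rose and fell were 11.4% and 14.8% in WT, 25.4% and 11.2% in the GCN2 line and 2.49% and 2.75% in the PERK line. After rescaling the GCN2 counts were 19 higher and 5 lower. The genes' response was higher than in WT for 18 of 42 in the GCN2 line (12.3% of all genes) and lower for 0 (1.88%). After rescaling 11 were higher and 1 lower, and leaving out single WT libraries (DMSO 1, thapsigargin 2 or thapsigargin 3) left 8 or 9 higher. In the PERK line the response was higher for 3 and lower for 4 (5.56% and 7.31% of genes).

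Among SMAD transducers and their regulators, 8 of 10 rose with thapsigargin in the GCN2 line and 0 fell. Of all tested genes, 25.4% rose there and 11.2% fell. Smad9, a receptor-regulated SMAD, went from 8.53 to 24.2 TPM (1.40, adjusted p = 3.73e-12). Skil, which encodes a repressor of SMAD-driven transcription, went from 39.7 to 94.6 TPM (1.23, adjusted p = 3.76e-07). In WT 2 of the 10 rose, among them Smad9 (7.45 to 11.1 TPM, 0.51), and 3 fell (11.4% and 14.8% of genes). Within the PERK line 0 of 10 passed (2.49% of genes rose and 2.75% fell). The Skil response was higher in the GCN2 line than in WT by 1.23 ± 0.22 (adjusted p = 0.00051), and the Smad9 response was lower in the PERK line than in WT by -0.67 ± 0.14 (adjusted p = 0.0010). The response of Tob1, which encodes an antiproliferative protein that binds SMADs, was higher in the PERK line than in WT (0.61 ± 0.12, adjusted p = 0.00070).

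Secreted antagonists bind BMPs or related ligands outside the cell. In the GCN2 line 5 of 12 rose with thapsigargin and 1 fell, where 25.4% of all tested genes rose and 11.2% fell. Nog (noggin) went from 0.916 to 4.48 TPM (1.52 ± 0.12, adjusted p = 2.89e-11) and Grem1 (gremlin) from 87.1 to 224 TPM (1.35 ± 0.11, adjusted p = 1.9e-10), and their responses were higher than in WT by 1.35 ± 0.16 and 1.00 ± 0.16 (adjusted p = 2.93e-06 and 0.00012). Fstl1, which encodes a follistatin-like protein, fell there from 349 to 234 TPM (-0.58, adjusted p = 1.35e-07). In WT 3 of 12 rose and 4 fell (11.4% and 14.8% of genes). Among these, Dand5 stood at 4.65 against 3.20 TPM (0.43, adjusted p = 0.0027). Crim1, a membrane protein that binds BMPs, stood at 46.2 against 81.7 TPM (-0.83, adjusted p = 0.00055, and 0.059 with the compared groups alone). For the PERK line, 1 rose and 3 fell (2.49% and 2.75% of genes). The 1 that rose was Grem1, at 190.0 against 144 TPM (0.39, adjusted p = 0.038). That call did not pass when any 1 of the 6 libraries was left out. Fst, which encodes the activin and BMP binder follistatin, fell there from 11.1 to 7.15 TPM (-0.57, adjusted p = 0.00029). The responses of Fst and Dand5 were lower in the PERK line than in WT, by -0.95 ± 0.14 and -0.69 ± 0.15, and those of Fstl1 (0.40 ± 0.10) and Crim1 (0.79 ± 0.25) were higher. The adjusted p of the Crim1 difference was 0.031, and it was over 0.05 after 8 of the 12 single-library omissions.

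Acvr1, a type I receptor gene, rose with thapsigargin in WT from 20.9 to 33.0 TPM (0.63 ± 0.08, adjusted p = 1.4e-06), the largest rise in WT among the 42 pathway genes beyond the members. In the same cells Rgmb, a co-receptor gene, stood at 5.69 against 8.69 TPM (-0.53, adjusted p = 0.025), a fall that 4 of 6 single-library omissions took above 0.05. Of the 9 tested receptors and co-receptors, 1 rose and 2 fell in WT, 3 rose in the GCN2 line and 0 passed in the PERK line. Of all tested genes, 11.4% rose and 14.8% fell in WT, and 25.4% rose and 11.2% fell in the GCN2 line. The PERK line had 2.49% and 2.75%. Hes1, a transcriptional repressor gene counted among other BMP targets, fell in all 3 lines: from 12.4 to 5.94 TPM in WT (-0.95), from 44.5 to 25.6 TPM in the GCN2 line (-0.77) and from 15.8 to 7.95 TPM in the PERK line (-0.91), with adjusted p of 1.22e-09, 4.11e-08 and 1.1e-08. Msx1, a homeobox target gene, stood at 5.05 against 7.55 TPM in the PERK line (-0.50, adjusted p = 0.018), a fall that did not pass against untreated cells (-0.21, adjusted p = 0.40), with a pseudocount of 0.1 (0.44), with a filter at 5 TPM (0.12) or after 4 of 6 single-library omissions (0.055 to 0.13). Of the bHLH partners of ID proteins, 0 of 5 passed in WT and in the PERK line. Within the GCN2 line 2 rose and 1 fell, with Tcf3, which encodes the E proteins E12 and E47, at 122 against 148 TPM (-0.28, adjusted p = 0.0089). The Tcf3 call was lost without DMSO replicate 1 (adjusted p = 0.068) or thapsigargin replicate 1 (0.054).

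Starvation was tested on these 42 genes, since the rule that chose the members did not name them. Their lists were still drawn up with earlier results of these data known, so the calls are not those of lists fixed beforehand. In WT 13 rose and 6 fell, where 12.5% of all tested genes rose and 17.3% fell. In the GCN2 line 12 rose and 2 fell (11.7% and 12.1% of genes), and in the PERK line 4 rose and 4 fell (5.67% and 6.32%). The starvation response was higher than in WT for 5 and lower for 2 of the 42 in the GCN2 line (3.64% and 4.07% of genes), and higher for 6 and lower for 6 in the PERK line (5.53% and 5.28%). Fitting the compared groups alone left 5 higher and 3 lower in WT, 1 and 2 in the PERK line, and 1 and 2 (GCN2 line) and 2 and 4 (PERK line) for the response differences. Starved WT libraries had fibroblast marker sums of 3436 to 3576 TPM against 3924 to 4552 untreated, and starved PERK libraries 3353 to 3403 against 2849 to 3114 TPM, and the part of this in the changes was not tested. Rescaling took the share of called genes in WT that were higher from 41.9% to 52.1%. Skil rose in WT from 16.3 to 38.8 TPM (1.23 ± 0.16, adjusted p = 4.95e-07) and in the GCN2 line from 34.5 to 70.2 TPM (1.02 ± 0.16, adjusted p = 1.54e-05). Its response was lower in the PERK line than in WT by -0.99 ± 0.22 (adjusted p = 0.0028). Grem1 rose in WT from 185 to 366 TPM (0.99, adjusted p = 7.78e-08), and its response was lower than that of WT in both the GCN2 line (-0.83 ± 0.16, adjusted p = 0.00074) and the PERK line (-0.89 ± 0.16, adjusted p = 0.00025). Smad9 fell in the GCN2 line from 7.63 to 4.61 TPM (-0.62, adjusted p = 2.27e-05) and in the PERK line from 11.3 to 4.04 TPM (-1.29, adjusted p = 1.43e-10). Its response was lower than in WT by -0.61 ± 0.14 (adjusted p = 0.0039) and -1.28 ± 0.14 (adjusted p = 1.11e-07).

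The type I receptor gene Acvr1 also rose in WT from 20.3 to 35.97 TPM (0.80, adjusted p = 2.05e-08) and in the PERK line from 26.6 to 38.9 TPM (0.54, adjusted p = 4.82e-05). With the compared groups alone, the PERK line calls of Acvr1, Fstl3 and Tob1 did not pass (adjusted p = 0.12, 0.12 and 0.087). Bmpr1b, another type I receptor gene, rose in the PERK line from 2.08 to 5.37 TPM (1.05, adjusted p = 3.29e-07) and in the GCN2 line from 2.76 to 5.46 TPM (0.79, adjusted p = 1.49e-05). Its response was higher than in WT by 1.03 ± 0.17 in the PERK line and by 0.76 ± 0.17 in the GCN2 line (adjusted p = 8.52e-05 and 0.0033), the latter not passing with a pseudocount of 0.1 (0.092) or the compared groups alone (0.088). Tob1 fell in WT from 16.4 to 9.63 TPM (-0.72) and in the PERK line from 17.6 to 12.03 TPM (-0.52), and its response was higher in the GCN2 line than in WT (0.66 ± 0.12, adjusted p = 0.00033). Fst rose in the GCN2 line from 57.0 to 109 TPM (0.92), a response higher than in WT by 0.60 ± 0.14 (adjusted p = 0.0062, and 0.062 with the compared groups alone). There Dand5 fell from 2.19 to 1.45 TPM (-0.38), which did not pass with DMSO as the control (adjusted p = 0.17), the compared groups alone (0.072) or untreated replicate 2 left out (0.079). Nog fell in the PERK line from 3.51 to 1.26 TPM (-0.99), where Fstl3, a gene for an activin binder, rose from 11.9 to 15.8 TPM (0.38). The co-receptor genes Rgma (2.43 to 1.31 TPM, -0.57) and Eng (2.69 to 1.85 TPM, -0.37) fell in WT, and Eng did not pass against DMSO (adjusted p = 0.28), with no filter (0.073), with the compared groups alone (0.067) or after 5 of 6 single-library omissions (0.052 to 0.10). The responses of Rgma and Fstl3 were higher in the PERK line than in WT, by 0.63 ± 0.20 (adjusted p = 0.038) and 0.60 ± 0.12 (adjusted p = 0.0012), but with DMSO as the control neither passed (0.37, adjusted p = 0.30, and 0.36, adjusted p = 0.071). The Rgma difference also did not pass in 10 other settings, among them the compared groups alone (adjusted p = 0.30), no filter (0.078) and 5 single-library omissions (0.072 to 0.14).

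The lines also differed in pathway genes with DMSO. Within the GCN2 line 25 of 42 were higher and 5 lower than in WT, and in the PERK line 26 were higher and 6 lower, where 25.8% and 17.5% of all genes were higher and lower in the former and 38.5% and 15.1% in the latter. After rescaling the counts were 25 and 6 in the GCN2 line and 21 and 8 in the PERK line. The GCN2 line held more of the antagonist gene Nbl1 (50.2 against 9.61 TPM, 2.27), of Fst (62.8 against 15.3 TPM, 1.97) and of Tcf4, a gene for an E protein (78.2 against 19.4 TPM, 1.97). It held less Grem1 (87.1 against 198 TPM, -1.17), Dand5 (1.85 against 3.20 TPM, -0.56) and Fstl3 (16.0 against 24.01 TPM, -0.56). The PERK line held 12.9 TPM of the homeobox target gene Msx2 against 0.0127 TPM in WT (3.77 ± 0.10, adjusted p = 8.24e-23), and 7.55 TPM of Msx1 against 0.624 TPM (2.39). Of the ligand gene Bmp6 it held 3.41 TPM against 0.0493 TPM (2.06). It held less of Twist2, a bHLH factor gene (13.0 against 52.0 TPM, -1.94), less Fstl3 (12.5 against 24.01 TPM, -0.90) and less Rgma (1.11 against 2.04 TPM, -0.53).

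Across the 12 group means, the genes whose log2 levels were most like those of Bmp4 among 10177 genes with at least 5 TPM in some group were Shroom3 (Pearson r = 0.988), Tesk2 (0.970), Rfx2 (0.964) and Qrsl1 (0.953). For Atoh8 they were Plpp1 (0.924), Kif7 (0.885), Zmym6 (0.874) and Mettl15 (0.868), and for Id1 they were Lrrc32 (0.982), Gng10 (0.970), Efemp2 (0.966) and Timp2 (0.966). Among the members, Atoh8 was most like Id3 (0.809), Id2 (0.775) and Smad6 (0.729), with Id1 at 0.525, Bmp4 at 0.0056 and Smad7 at -0.29. Bmp4 had a negative r with Smad7 (-0.64), Id1 (-0.56), Id2 (-0.50), Id3 (-0.49) and Smad6 (-0.37). These are descriptions over 12 points that share 3 lines, with 4 groups from each, so a gene that differs between lines can have a high r without any response to stress.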

How the data were processed

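RNA was measured in 36 libraries of 3 MEF lines, extracted as total RNA with Trizol and prepared with a stranded TruSeq kit, per the labels' protocols. The submitters' processing notes name FastQC, kallisto and mm10, and give no versions. The deposited table holds TPM per gene symbol, computed by the authors before deposit, with column totals of 999999.83 to 1000000.09. The read depth cannot be recovered from TPM, so it is unknown and no counting interval is given. No 2 columns were identical, and 0 columns were left unused.

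From these values log2(TPM + 1) was computed for genes that reached 1 TPM in 3 or more libraries. The 12 groups entered 1 linear model in limma 3.58.1 (R 4.3.3), with robust, expression-trended variances (24 residual degrees of freedom). There were 12 comparisons, each with Benjamini-Hochberg adjustment, and a call needs an adjusted p under 0.05. Members were tested with thapsigargin and between lines with DMSO, and only described with starvation. The procedure was tried on simulated data with independent normal noise and changes added to some genes in a single group. That simulation held no line differences and no shift of scale between libraries, so it cannot speak to either. Of the other pathway genes, up to 3 that rose and 3 that fell most in each comparison are named, given 2 TPM or more in the mean of a compared group. The Skil rise with thapsigargin in the GCN2 line was added beside its response. The genes most like Bmp4, Atoh8 and Id1 leave out gene models and small RNAs. Promoter sequence came from RefSeq. Python 3.11.15 and matplotlib 3.10.9 were used for figures.

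A further pathway gene is not reported here and is left out of all list counts. The members and lists were chosen with earlier results of these data known. Alternatives were a pseudocount of 0.1, no filter, a filter at 5 TPM, median-of-ratios rescaling, no variance trend, a replicate block, the other control, the compared groups alone, and leaving out each library. Leaving out the 6 libraries of high microRNA share was added after seeing the data.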

Additional observations from a re-analysis of the deposited data

Results flagged for a closer look

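A thapsigargin response that differed between a deletion line and WT, by limma's test of the difference itself with Benjamini-Hochberg adjustment, marked 7 member results. In the GCN2 line the log2 response was higher than in WT by 1.42 for Bmp4, 1.38 for Atoh8, 1.11 for Smad6, 0.65 for Id3 and 0.47 for Id2. Of all tested genes, 12.3% had a higher and 1.88% a lower response there. Id3 and Id2 did not pass after rescaling (adjusted p = 0.10 and 0.12). Against WT, the PERK line's response was higher by 1.36 for Bmp4 and lower for Smad7 (-1.09), where 5.56% of genes had a higher and 7.31% a lower response. Atoh8 and Smad6 rose in the GCN2 line and fell in WT, whereas the Bmp4 difference goes with a fall in WT and no call in either deletion line.

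Among other pathway genes the thapsigargin response of Nog (1.35), Skil (1.23) and Grem1 (1.00) was higher in the GCN2 line than in WT. The PERK line's response was higher for Crim1 (0.79), Tob1 (0.61) and Fstl1 (0.40) and lower for Fst (-0.95), Dand5 (-0.69) and Smad9 (-0.67). The starvation response in the GCN2 line was higher than in WT for Bmpr1b (0.76), Tob1 (0.66) and Fst (0.60) and lower for Grem1 (-0.83) and Smad9 (-0.61). That of the PERK line was higher for Bmpr1b (1.03), Rgma (0.63) and Fstl3 (0.60) and lower for Smad9 (-1.28), Skil (-0.99) and Grem1 (-0.89). Some of these calls depended on the setting, as given above. Rgma and Fstl3 did not pass with DMSO as the control, nor Crim1 after most single-library omissions. The Bmpr1b and Fst differences of the GCN2 line did not pass with the compared groups alone.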

How the results depend on the processing

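Of 929 recomputed tested values of members, 904 kept their side of the threshold, 15 were no longer past it and 9 came past it. The remaining 1 changed sign and came past it: Id2 with thapsigargin in the PERK line, which was -0.28 against untreated cells. Values that changed sign without a call in either setting count among the 904. An example is Id3 with thapsigargin in WT (-0.05, and 0.02 after rescaling). The 929 include values against untreated cells, which entered the choice of genes, so those carry no weight as tests. Of 691 described starvation values, 37 moved by more than 1 standard deviation.

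Against untreated cells, the members called with thapsigargin in the PERK line went from 3 to 6, a count without weight since those libraries entered the choice. The other pathway genes whose thapsigargin response differed between the PERK line and WT went from 7 to 12 with that control. Rescaling took the members whose thapsigargin response differed between the GCN2 line and WT from 5 to 3. Fitting the compared groups alone took the pathway genes called with starvation from 19 to 8 in WT, from 8 to 3 in the PERK line, and for the response differences from 7 to 3 (GCN2 line) and from 12 to 6 (PERK line). No filter gave 7 for the last.

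Leaving out 1 library gave 2 to 5 in place of 6 pathway genes with thapsigargin in the PERK line, the 2 without DMSO replicate 2 or thapsigargin replicate 1. It gave 8 to 21 in place of 18 for the thapsigargin response difference of the GCN2 line, the 8 after omission of WT DMSO replicate 1 or of replicate 3 of thapsigargin-treated WT, and 9 after omission of replicate 2 of the latter. It kept members at 6 to 7 of 7 (WT), 6 to 7 of 6 (GCN2 line), 2 to 3 of 3 (PERK line), 5 to 6 of 5 and 2 of 2 (response differences), and 7 of 7 and 6 to 7 of 7 (lines with DMSO). The cause of these changes was not tested.

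Over all genes, the response difference of the GCN2 line to thapsigargin went from 2276 to 5709 with untreated controls, 4385 without the 6 libraries, 1437 with the compared groups alone and 1131 with WT thapsigargin replicate 3 left out. For thapsigargin in the PERK line it went from 843 to 1514 and 1372 with the first 2 of these, and for that line's response difference from 2070 to 3205 with the first. With the compared groups alone, starvation counts went from 4799 to 2191 (WT), 1929 to 282 (PERK line), 1240 to 780 and 1739 to 687 (response differences of the GCN2 and PERK lines), and 1240 became 1878 without WT untreated replicate 3.

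Same-numbered libraries deviated together with a correlation of -0.179 to 0.155, and in 0 of 22 pairs of groups were all over 0.1, so the numbers were not taken to pair libraries. With a replicate block the members called were unchanged in number in all 7 comparisons (7 in WT, 6 in the GCN2 line and 3 in the PERK line with thapsigargin). Pathway genes went from 18 to 15 for the thapsigargin response difference of the GCN2 line, from 19 to 18 for starvation in WT and from 12 to 11 for its difference in the PERK line. TPM gives no depth, so low genes such as Bmp2 and Id4 carry an unknown counting error.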
